A study of Mus musculus with 12 samples.

Results

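The Arp2/3 complex and the straight-filament nucleators of the mouse oocyte were followed in fully grown, germinal vesicle (GV)-stage oocytes with and without defects of Dpagt1, the gene for the enzyme that starts protein N-glycosylation. The set holds 10 of the 24255 genes in the table and its members were picked by gene symbol. It comprised 8 genes for subunits of the Arp2/3 complex (Actr2, Actr3, Arpc1a, Arpc1b, Arpc2, Arpc3, Arpc4 and Arpc5) and 2 genes for nucleators of unbranched filaments, Fmn2 and Spire1. All 10 were found, and all 10 passed the filter of at least 1 FPKM in at least 1 library.

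The Arp2/3 complex binds the side of an existing actin filament and starts a branch from it. The actin-related proteins Arp2 and Arp3, encoded by Actr2 and Actr3, form the first units of the daughter filament, and the ARPC subunits clamp them to the mother filament. The complex needs activators of the WASP and WAVE families. The formin FMN2 works together with SPIRE proteins to build the cytoplasmic actin mesh of the oocyte. In mouse oocytes this mesh moves the first meiotic spindle from the centre to the cortex, and Arp2/3 activity keeps the spindle at the cortex for the asymmetric division.

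RNA-Seq was performed by Smart-seq2, an amplification method for very little RNA, on 12 libraries of 20 oocytes each, from C57BL/6 females aged 3 weeks that had been primed with 5 IU PMSG 46 h earlier. The study's methods give the background of the D166G, floxed and Gdf9-Cre mice as C57BL/6J. Each of the 4 groups had 3 libraries: WT, the D166G mutants (MUT), a Dpagt1 knockout in oocytes (GcKO) and a knockout in granulosa cells (AmcKO). MUT females carried an ENU-induced missense mutation in every cell. GcKO was Dpagt1F/F Gdf9CRE/+, in which Cre is driven in the oocyte, and AmcKO was Dpagt1F/F Amhr2CRE/+, in which it is driven in granulosa cells, so that both, unlike WT and MUT, carried the floxed alleles and a Cre. Replicates 1 to 3 are MUT or GcKO and replicates 4 to 6 are WT or AmcKO, so a batch that follows the numbering cannot be told apart from a defect of the oocyte's own Dpagt1. Nothing in the labels says that the 3 libraries of a group came from separate animals, and the spread between them may be technical. Each library is a pool, so a lower level in every oocyte and a loss from some of them cannot be told apart.

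Dpagt1 itself was listed at 0 in all WT and AmcKO libraries, at 0.878, 0.408 and 0.985 FPKM in MUT and at 0, 0.366 and 0 FPKM in GcKO, too low to check the labels. The oocyte markers were present in every library, at a summed 9792 to 10462 FPKM in WT and 5561 to 7819 FPKM in GcKO. The 11 granulosa cell markers summed to 11.5 to 28.9 FPKM over all libraries, with Amh, Amhr2 and Foxl2 at 0 throughout. Most of the WT sum was Cyp19a1, at 15.1 to 20.1 FPKM. Inha was at 0 in WT, at 5.44, 1.13 and 5.44 FPKM in MUT and at 1.077, 0.505 and 0.842 FPKM in GcKO. Hsd17b1 was at 0 in WT, at 2.06, 0.642 and 3.09 FPKM in MUT and at 0, 0 and 0.957 FPKM in GcKO. The part of these markers in the results was not tested. FPKM values of a library summed to 1167360 to 1226000 in WT, 883256 to 1107920 in AmcKO, 589617 to 611597 in MUT and 482314 to 684212 in GcKO. The smallest steps in the values placed the depth at about 921000 to 1110000 fragments in WT and 1010000 to 1610000 in the other groups.

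In WT oocytes the subunit transcripts were present at very unequal levels. Actr2 reached 495, 525 and 527 FPKM in the 3 WT libraries, 197 to 231 times the level of the lowest subunit, Arpc1a. It made up 72.2 to 78.9% of the summed FPKM of the 8 subunits. Arpc3, which encodes a small subunit at the interface with the mother filament, came next at 85.7, 72.6 and 118 FPKM. Arpc2 (17.2 to 35.2 FPKM), whose product forms the core of the complex with that of Arpc4, and Actr3 (16.4 to 27.8 FPKM) overlapped each other. Arpc4 (5.99 to 10.98 FPKM), Arpc5 (5.43 to 9.60 FPKM) and Arpc1b (5.87 to 9.60 FPKM) overlapped as well. Arpc1a lay below all of them at 2.36, 2.67 and 2.28 FPKM, about 2.1 estimated fragments in each library. FPKM is a level per transcript length, and these levels are set side by side as listed. The lengths used by the authors are not known, so the order of genes is approximate. The places of Arpc4 and Arpc1b are uncertain, since their exons overlap those of other genes.

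The plot of FPKM by gene and library shows these levels with Arpc5l, a paralog of Arpc5 that can take its place in the complex. Arpc5l stood at 656, 581 and 565 FPKM in WT, above Actr2, and gave 98.6 to 99.1% of the summed FPKM of the Arpc5 pair. The other paralogs were almost absent, Actr3b being listed at 0 in every library except 1 of MUT (0.462 FPKM) and Spire2 at 0 in WT and at most 1.17 FPKM elsewhere.

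**Figure D1:**
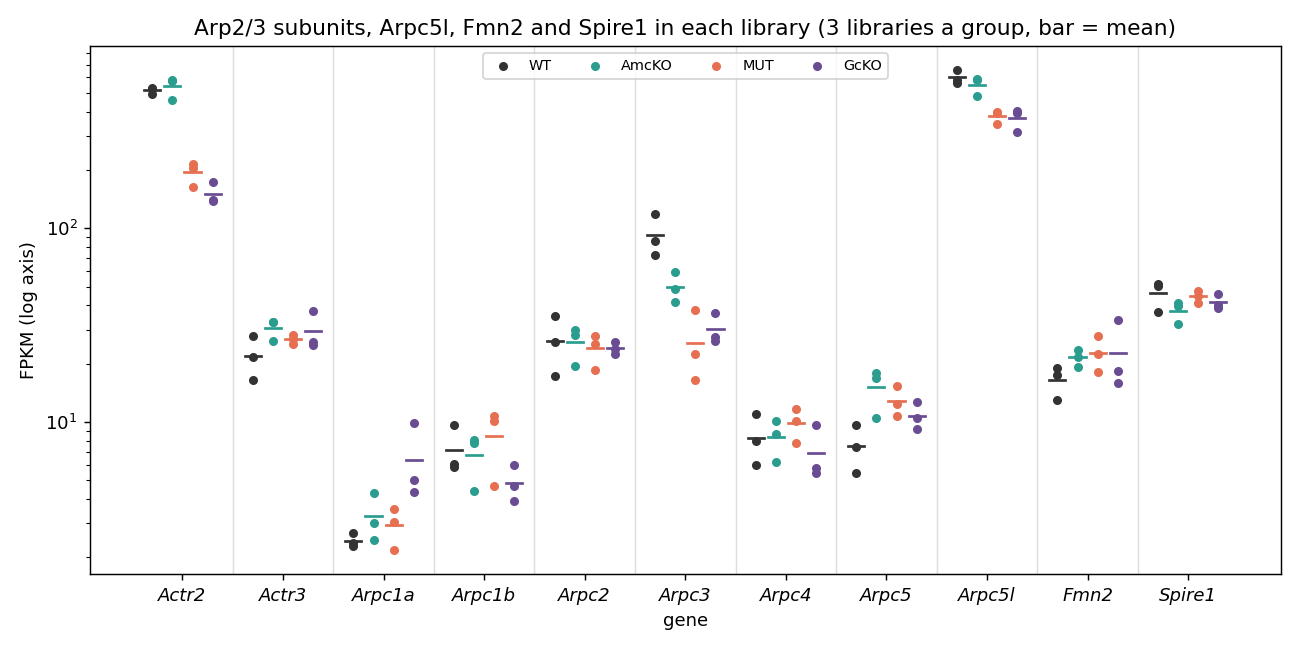
FPKM on a log axis of the 8 Arp2/3 subunits, Arpc5l, Fmn2 and Spire1 in the 3 libraries of each group, each point a library and each bar a group mean. Actr2 lies between 461 and 584 FPKM in WT and AmcKO and between 139 and 214 FPKM in MUT and GcKO.

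Actr2 and Arpc3 were lower in both groups whose oocytes carried the defect. Limma with a variance trend, fitted to log2(FPKM + 1) of 11233 genes, called 2 of the 10 genes changed in MUT against WT at a Benjamini-Hochberg adjusted p under 0.05, both lower, while 20.8% of all genes tested were called. In GcKO against WT it called 3, with 2 lower and 1 higher, beside 20.2% of all genes. By direction, 11.3% of all genes were called lower and 9.46% higher in MUT, and 11.4% lower and 8.71% higher in GcKO. The median log2 fold change of the 10 was 0.18 in MUT and -0.10 in GcKO, against 0.12 over all genes in either contrast.

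Actr2 stood at 214, 206 and 164 FPKM in the MUT libraries and at 140, 173 and 139 FPKM in the GcKO libraries. None of these 6 values reached the WT range. On the log2(FPKM + 1) scale Actr2 fell by 1.41 (standard error 0.16, adjusted p = 1.1e-04), or 2.66-fold, in MUT oocytes. In GcKO oocytes it fell by 1.77 (standard error 0.16, adjusted p = 2.8e-05), or 3.42-fold. Actr2 lies on the reverse strand of chromosome 11, from 20062304 to 20112913 in GRCm38, and its transcript has 9 exons and overlaps no other annotated gene. About 990 to 1160 estimated fragments lay behind each WT value and 464 to 1030 behind each MUT or GcKO value.

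Arpc3 stood at 22.4, 16.5 and 38.0 FPKM in MUT and at 27.5, 26.03 and 36.5 FPKM in GcKO. All 6 values lay below the lowest WT library. It fell by 1.86 (standard error 0.28, adjusted p = 4.9e-04), or 3.63-fold, in MUT and by 1.57 (standard error 0.28, adjusted p = 0.00145), or 2.98-fold, in GcKO. Arpc3 occupies 122391878 to 122414184 of chromosome 5 on the forward strand, and Gm42829 overlaps it outside its exons. Its values rest on fewer estimated fragments, 27.9 to 53.1 in WT and 16.8 to 32.0 in MUT and GcKO. For both genes the call held in all 12 fits that left out 1 library.

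Both genes were also set beside transcripts of like abundance. Of the 882 genes with a mean of at least 100 FPKM over all libraries, 68.1% were called lower in MUT and 71.0% in GcKO, with medians of -0.81 and -0.87 in log2 fold change. Within that class, 12.2% of genes in MUT and 2.72% in GcKO had a lower log2 fold change than Actr2. Of the 2539 genes with 10 to 100 FPKM, 20.2% were called lower in MUT and 20.4% in GcKO, and 1.18% and 2.56% had a lower log2 fold change than Arpc3. The plot of fold change against level shows both genes among all those tested.

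**Figure D2:**
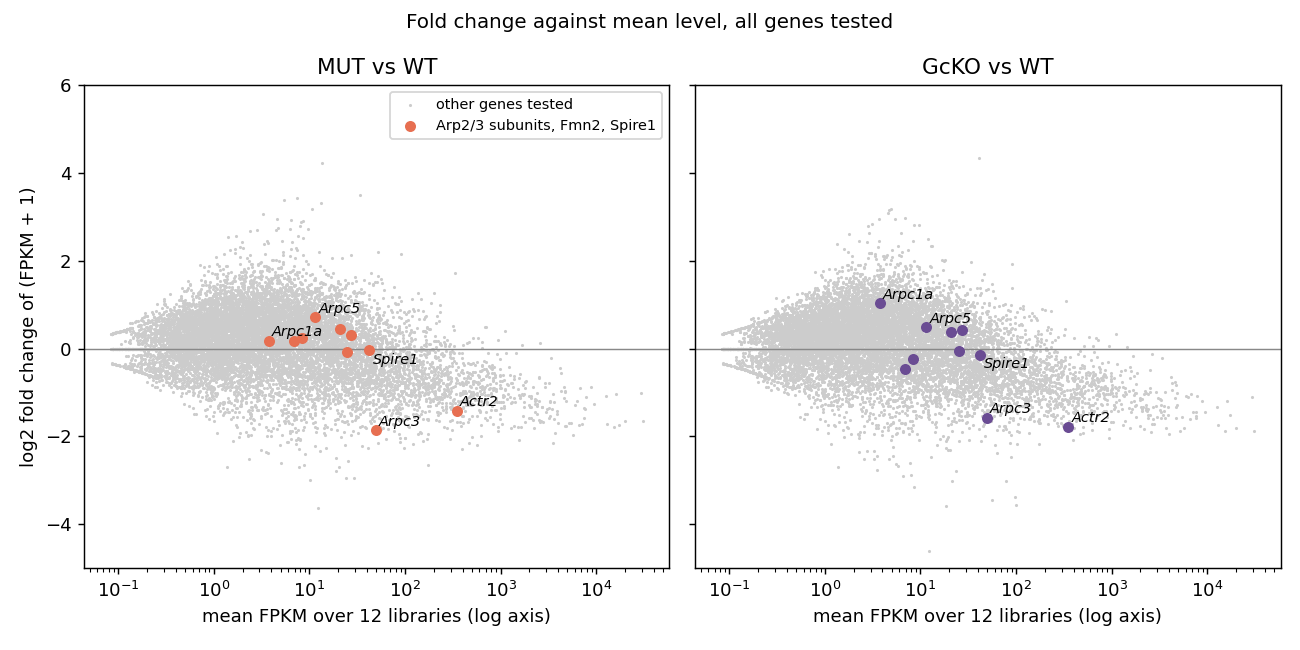
Log2 fold change of (FPKM + 1) against mean FPKM over 12 libraries (log axis) for MUT and GcKO against WT, with the 11233 genes tested in grey and the 10 Arp2/3 and nucleator genes in colour. Actr2 (-1.41 and -1.77) and Arpc3 (-1.86 and -1.57) lie below most genes of their levels, and the median of genes of at least 100 FPKM is -0.81 and -0.87.

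The sequences around the annotated starts of Actr2, Arpc3 and Actr3 are shown for comparison. Actr2 and Arpc3 were called lower, and Actr3, the partner of Actr2, was not called with the deposited values. They are RefSeq promoters of GRCm38.p6, 300 bases each (250 before the start and 50 from it on), at chr11:20112902-20113201 (reverse strand), chr5:122391628-122391927 (forward strand) and chr1:125435678-125435977 (reverse strand), read 5′ to 3′ on the gene's strand. Capitals mark each match, on either strand, to the ETS core CGGAAG or to the GC box, whose letters are GGGCGG. Matches to both overlap in part in Arpc3.
Actr2: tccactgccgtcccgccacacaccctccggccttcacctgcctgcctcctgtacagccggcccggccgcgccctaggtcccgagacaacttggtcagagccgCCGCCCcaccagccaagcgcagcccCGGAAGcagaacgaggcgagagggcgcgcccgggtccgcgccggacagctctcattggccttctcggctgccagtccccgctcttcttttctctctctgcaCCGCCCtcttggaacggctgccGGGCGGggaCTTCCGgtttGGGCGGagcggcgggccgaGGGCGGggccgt
Arpc3: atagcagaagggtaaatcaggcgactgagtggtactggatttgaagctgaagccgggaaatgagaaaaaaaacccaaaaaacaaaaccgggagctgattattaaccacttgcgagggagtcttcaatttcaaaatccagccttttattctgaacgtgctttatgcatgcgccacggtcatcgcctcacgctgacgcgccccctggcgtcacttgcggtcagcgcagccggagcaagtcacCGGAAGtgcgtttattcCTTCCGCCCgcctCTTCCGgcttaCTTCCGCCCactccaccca
Actr3: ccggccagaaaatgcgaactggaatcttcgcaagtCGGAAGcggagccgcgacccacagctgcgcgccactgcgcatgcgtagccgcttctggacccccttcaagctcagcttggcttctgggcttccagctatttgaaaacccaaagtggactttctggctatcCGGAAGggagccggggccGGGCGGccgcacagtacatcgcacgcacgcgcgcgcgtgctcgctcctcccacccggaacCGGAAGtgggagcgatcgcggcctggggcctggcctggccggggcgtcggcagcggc
Actr2 held 2 matches to the ETS core and 5 to the GC box, Arpc3 held 4 and 2, and Actr3 held 3 and 1. Of the 9 genes of the set with a promoter in that table, 7 held the ETS core and 7 the GC box, against 16.9% and 35.7% of all 32851 promoters. None of the 9 held TATAAA, which 13.6% of all promoters hold. GC content was 72% for Actr2, 52.7% for Arpc3 and 67.3% for Actr3, with a median of 52.7% over all promoters. Over the 9 genes it ran from 52.7% (Arpc3) to 73.7% (Arpc5). The number of CG pairs ran from 17 (Fmn2) to 41 (Arpc5), with a median of 7 over all promoters. The ETS core and the GC box each hold a CG pair, and the background was not matched for them. These matches are letters in a window and were tested against no expression value.

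The remaining subunits were not called in MUT against WT. Actr3, the partner of Actr2 in the daughter filament, was at 25.1, 28.2 and 26.7 FPKM in MUT and 37.5, 25.9 and 24.9 FPKM in GcKO, within or above the WT range. Its log2 fold changes were 0.30 (95% interval -0.17 to 0.77) and 0.42 (95% interval -0.06 to 0.89). Arpc2, a core subunit, had log2 fold changes of -0.08 and -0.05, with intervals that reached from -0.63 to 0.50. Arpc4, the other core subunit, had 0.24 and -0.23. Its exons overlap those of Ttll3 and the table's interval for it extends over that gene, so its level is uncertain. Arpc5 was at 12.4, 10.7 and 15.4 FPKM in MUT, each above the 3 WT values, with a log2 fold change of 0.72 (95% interval 0.15 to 1.29) that missed the threshold (adjusted p = 0.0698). It was called higher in MUT without WT replicate 4 or AmcKO replicate 5 (lowest adjusted p = 0.0459), and among genes with a mean of at least 5 FPKM.

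Arpc1a and Arpc1b encode alternative forms of the propeller-shaped subunit through which activators bind. Arpc1a was at 4.36, 5.00 and 9.84 FPKM in GcKO, each above the 3 WT values. It was called higher, by 1.04 on the log2 scale (standard error 0.32, adjusted p = 0.0335), or 2.05-fold. The 3 WT values rest on about 2 fragments each, and the GcKO values on 9.48 to 13.7. The call was lost without any single WT library and without GcKO replicate 2 or 3 (highest adjusted p = 0.103), after quantile normalization (adjusted p = 0.133), without the filter and with only the 2 groups in the fit. In MUT, Arpc1a was at 2.18, 3.55 and 3.05 FPKM and was not called (log2 fold change 0.18). Arpc1b was at 10.1, 4.69 and 10.7 FPKM in MUT and 5.98, 4.67 and 3.89 FPKM in GcKO, with log2 fold changes of 0.17 and -0.47, neither called. Its exons overlap those of Pdap1, and use of the read strand is not stated, so reads of the 2 genes may not be told apart.

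Fmn2 and Spire1 did not pass the test in any of the 6 contrasts with the deposited values. Fmn2 was at 12.9, 18.9 and 17.5 FPKM in WT, 22.5, 18.1 and 27.7 FPKM in MUT, 33.6, 18.3 and 15.96 FPKM in GcKO and 21.7, 19.3 and 23.7 FPKM in AmcKO. WT overlapped MUT and GcKO but not AmcKO. Its log2 fold changes against WT were 0.44 in MUT (95% interval -0.13 to 1.02) and 0.38 in GcKO (95% interval -0.19 to 0.96). Spire1 was the steadier of the pair, at 51.5, 50.3 and 36.8 FPKM in WT, 41.3, 47.6 and 44.7 FPKM in MUT and 40.1, 45.9 and 38.6 FPKM in GcKO. In AmcKO it was at 39.6, 32.1 and 41.0 FPKM. Its log2 fold changes were -0.04 in MUT (95% interval -0.42 to 0.34) and -0.14 in GcKO (95% interval -0.52 to 0.24). Up to 319 estimated fragments a library lay behind Fmn2 and 114 to 358 behind Spire1.

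The shares of the subunits in the summed transcript level differed between the groups. The 8 subunits summed to 649 to 730 FPKM in WT, 596 to 740 FPKM in AmcKO, 294 to 322 FPKM in MUT and 257 to 274 FPKM in GcKO. Without Actr2 and Arpc3, the other 6 summed to 67.5 to 84.6 FPKM in WT, 86.7 to 95.8 FPKM in AmcKO, 77.5 to 91.5 FPKM in MUT and 74.5 to 91.9 FPKM in GcKO, ranges that overlap WT in MUT and GcKO. The share of Actr2 was 77.3 to 81.7% in AmcKO, 55.9 to 68.6% in MUT and 54.0 to 63.3% in GcKO. The highest subunit exceeded the lowest by 53.7 to 98.3 times in MUT and 32.1 to 37.1 times in GcKO, less than in WT. Medians of log2 fold change were -0.81 in MUT and -0.87 in GcKO for genes of at least 100 FPKM, such as Actr2. They were 0.26 in both for genes under 10 FPKM, such as Arpc1a. The part of this difference in the shares was not tested.

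Ratios between genes of a library do not depend on a scale factor applied to the whole library. They can change under quantile normalization, under which they were not computed. The ratio of Actr3 to Actr2 was 0.0331, 0.0412 and 0.0528 in WT, 0.117, 0.137 and 0.163 in MUT and 0.268, 0.1498 and 0.179 in GcKO. No MUT or GcKO library overlapped WT, and the ratio was 3.32-fold higher in MUT and 4.64-fold higher in GcKO. In AmcKO it was 0.0564 to 0.0570, also above every WT library, by 1.36-fold. The exact permutation test, two-sided, gave p = 0.1 in each of the 3 cases, the smallest p that 3 against 3 libraries allow. With 12 such tests in all, no ratio could reach 0.05. Actr2 and Arpc5l are of the class with a mean of at least 100 FPKM. Its median log2 fold change against WT was -0.81 in MUT, -0.87 in GcKO and -0.29 in AmcKO. Actr3 and Arpc5 are of the class of 10 to 100 FPKM, with medians of -0.08, -0.11 and -0.02. The part of this difference between classes in the ratios was not tested.

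The ratio of Arpc5l to Arpc5 was 68.3, 107 and 75.9 in WT, 27.8, 36.7 and 25.9 in MUT, 24.8, 42.7 and 38.5 in GcKO and 32.9, 46.1 and 34.5 in AmcKO. It was lower than in every WT library in all 9 others, with differences of -1.46, -1.26 and -1.14 on the log2 scale (exact p = 0.1 each). The class medians given above differ in the same direction, and their part was not tested. Under quantile normalization the log2 fold changes of Arpc5l and Arpc5 lay closer together, at 0.23 and 0.61 in MUT and 0.27 and 0.37 in GcKO. The ratio of Arpc1b to Arpc1a was 2.57, 3.60 and 2.57 in WT and 1.37, 0.935 and 0.396 in GcKO, without overlap (log2 difference -1.85, exact p = 0.1), but 4.63, 1.32 and 3.499 in MUT (exact p = 0.9). Each WT value of it rests on only about 2.1 estimated fragments of Arpc1a and 4.49 to 6.3 of Arpc1b. The ratio of Spire1 to Fmn2 was 3.99, 2.67 and 2.11 in WT and overlapped that of MUT (1.61 to 2.63, exact p = 0.2) and GcKO (1.19 to 2.51, exact p = 0.4). In AmcKO it was 1.67 to 1.82, below every WT library (exact p = 0.1).

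**Figure D3:**
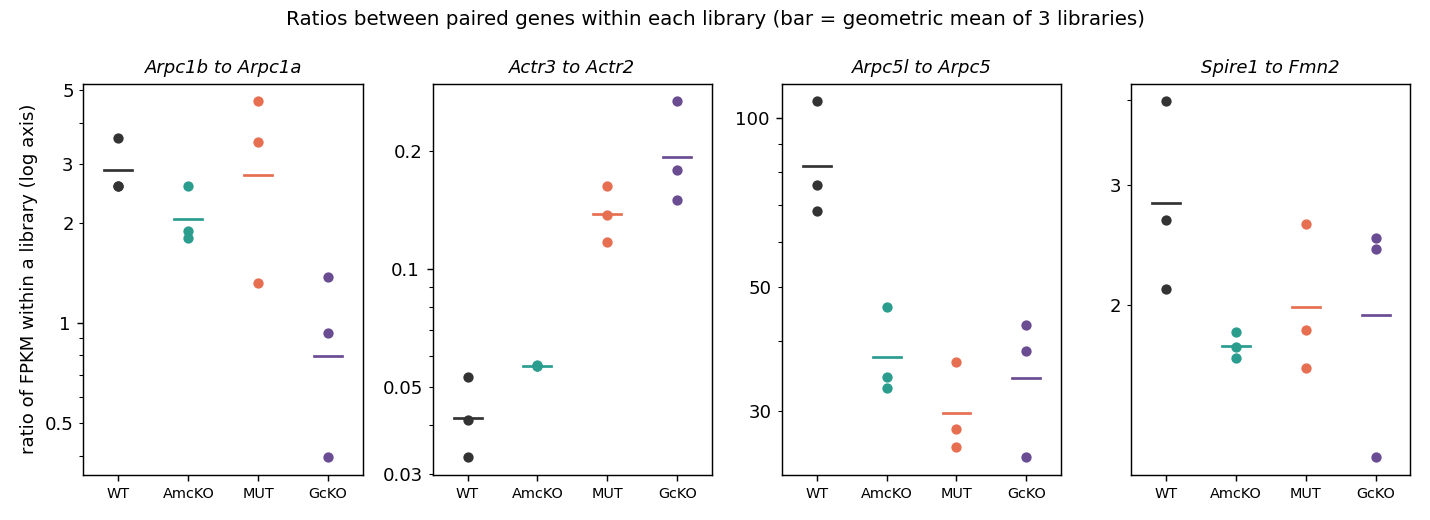
Ratios of FPKM within each library (log axes) for 4 gene pairs, each point a library and each bar the geometric mean of 3. Actr3 to Actr2 is 0.0331 to 0.0528 in WT and 0.117 to 0.268 in MUT and GcKO, and Arpc5l to Arpc5 is 68.3 to 107 in WT and 24.8 to 46.1 elsewhere.

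The changes relative to WT depended on the scaling of the libraries. Median-of-ratios factors of the deposited FPKM were 1.01 to 1.03 in every library, so the deposited values are already levelled in that way, while their sums were lower in MUT and GcKO. When each library was scaled to the same FPKM sum, the median log2 fold change of all genes rose to 0.71 in MUT and 0.74 in GcKO, and 43.6% and 44.6% of all genes were called. Of all genes, 2.23% were then lower and 41.3% higher in MUT, and 2.14% lower and 42.4% higher in GcKO. Actr2 remained lower in MUT (-0.42, adjusted p = 0.0307) and in GcKO (-0.74, adjusted p = 0.00127). Arpc3 remained lower in MUT (-0.89, adjusted p = 0.0173) and missed the threshold in GcKO (-0.56, adjusted p = 0.109).

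Under that scaling the other 8 genes were all above 0 in both groups. All 8 were called higher in MUT, from 0.88 for Arpc2 to 1.61 for Arpc5, and 6 of them in GcKO, Arpc1b and Arpc4 being the exceptions. Relative to the shifted median of all genes, Actr2 lay 1.13 lower in MUT and 1.48 lower in GcKO, and Arpc3 lay 1.60 and 1.30 lower. Spire1 lay 0.22 and 0.13 above it. With quantile normalization, 13.1% of all genes in MUT and 12.1% in GcKO were called, and Actr2 (-0.63 and -0.96) and Arpc3 (-1.55 and -1.18) were the genes of the set that were called, lower in both.

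**Figure D4:**
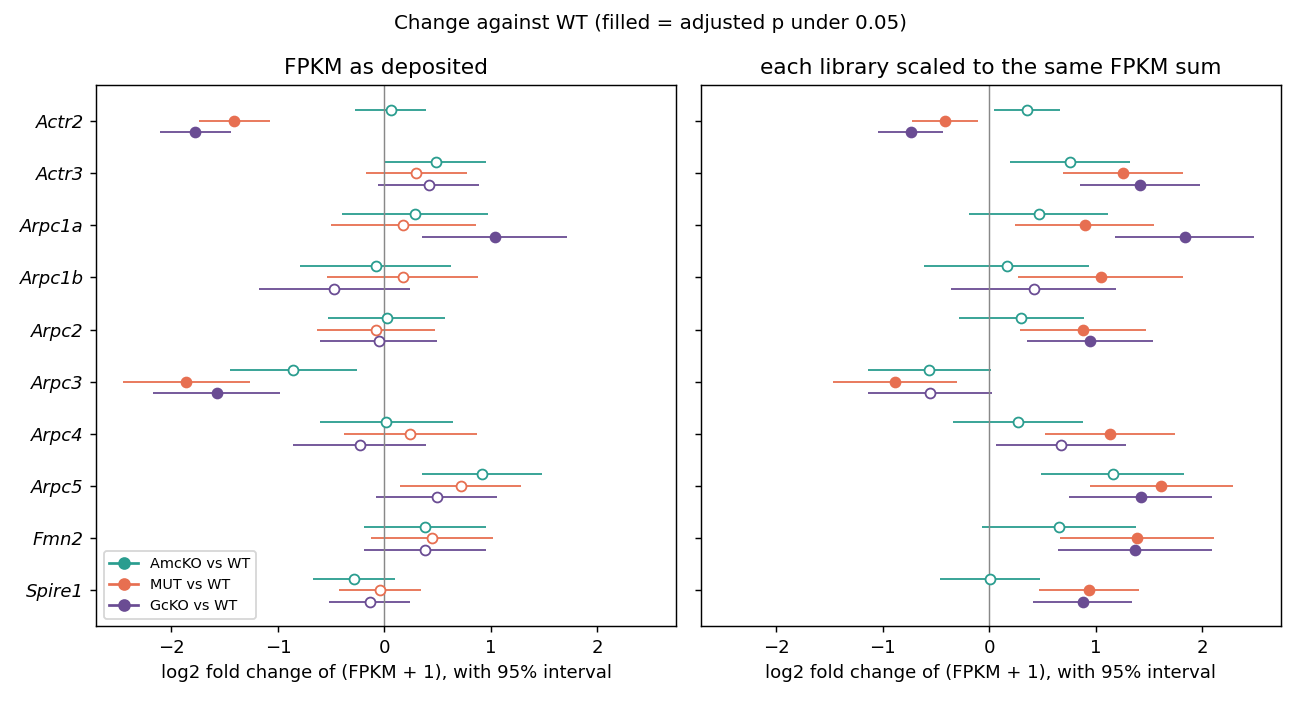
Log2 fold change of (FPKM + 1) of AmcKO, MUT and GcKO against WT with 95% intervals for the 10 genes, from the deposited values (left) and with each library scaled to the same FPKM sum (right), filled points being called at an adjusted p under 0.05. Actr2 lies below 0 in MUT and GcKO in both panels, whereas Spire1 moves from -0.04 to 0.94 in MUT.

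Loss of Dpagt1 from granulosa cells was compared with WT next. Limma called 0 of the 10 genes in AmcKO against WT, beside 0.214% of all genes called. At an unadjusted p under 0.05 there were 3 (Actr3, Arpc3 and Arpc5). The share of all genes at that threshold was not computed, so nothing about the set is read from this count. Actr2 was at 574, 584 and 461 FPKM, around the WT range, with a log2 fold change of 0.06 (95% interval -0.28 to 0.39). Arpc3 was at 41.8, 59.8 and 48.4 FPKM, each below the 3 WT values and above all of MUT and GcKO. Its log2 fold change was -0.86 (95% interval -1.45 to -0.26, adjusted p = 0.178). Arpc5 was at 17.8, 10.5 and 16.9 FPKM, each above the 3 WT values (0.92, 95% interval 0.35 to 1.48, adjusted p = 0.147).

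Set against AmcKO, which shares the numbering of WT, Actr2 was again lower. Limma called 1 of the 10 genes in GcKO against AmcKO, beside 5.46% of all genes, and 2 in MUT against AmcKO, beside 6.49%. Actr2 fell by 1.83 in GcKO (standard error 0.16, adjusted p = 5.2e-05) and by 1.47 in MUT (standard error 0.16, adjusted p = 2.2e-04). With only the 2 groups in the fit, Actr2 missed the threshold in GcKO against AmcKO (adjusted p = 0.06). Arpc3 fell by 1.00 in MUT (standard error 0.28, adjusted p = 0.046), a call that was lost in 11 of the 12 fits without 1 library, and it was not called in GcKO (-0.72, adjusted p = 0.167). These contrasts share the MUT and GcKO libraries with those against WT.

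MUT and GcKO were compared directly to see whether the whole-body mutation and the oocyte knockout differed. Limma called 0 of the 10 genes, beside 0.205% of all genes called. At an unadjusted p under 0.05 there were 2 (Actr2 and Arpc1a). The share of all genes at that threshold was not computed, so nothing about the set is read from this count. Actr2 differed by -0.36 (95% interval -0.70 to -0.03, adjusted p = 0.674), and Arpc1a by 0.86 (95% interval 0.18 to 1.54, adjusted p = 0.54), with the 3 GcKO values of Arpc1a above the 3 MUT values. Arpc3 differed by 0.29 (95% interval -0.31 to 0.88).

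Of 80 other actin genes listed by role, 54 passed the filter, and 12 were lower and 3 higher in MUT against WT and 13 lower and 4 higher in GcKO. Over all genes tested, 11.3% were lower and 9.46% higher in MUT, and 11.4% and 8.71% in GcKO. Among genes with a mean of at least 100 FPKM, 68.1% were called lower in MUT and 71.0% in GcKO. Arpc5l, Brk1, Cfl1, Cfl2, Tmsb10, Rab11a, Myl12a and Rdx, given below, belong to that class. The median log2 fold change was 0.04 in MUT and 0.20 in GcKO for the 54 genes, against 0.12 for all genes in each. Scaled to the same sum, the calls became 4 lower and 27 higher in MUT and 1 lower and 30 higher in GcKO, a scaling under which 41.3% of all genes in MUT and 42.4% in GcKO were called higher. With quantile normalization they were 6 and 6 in MUT and 3 and 5 in GcKO. On the same sum the median log2 fold change of all genes was 0.71 in MUT and 0.74 in GcKO. Genes called higher there can lie below that median, as did Brk1, Rab11a and Ran in GcKO and Rdx in both groups. Mos lay above it in MUT and below it in GcKO.

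Among the paralogs, Arpc5l was at 345, 392 and 398 FPKM in MUT and 313, 394 and 402 FPKM in GcKO, all below WT. It fell by 0.67 in MUT (adjusted p = 0.00615) and 0.70 in GcKO (adjusted p = 0.00431), but was above 0 and not called when scaled to the same sum (0.33 in each group). The median of all genes of at least 100 FPKM fell further, at -0.81 in MUT and -0.87 in GcKO. Of 5 activators tested, 0 were called in MUT by limma, also at an unadjusted p under 0.05. In GcKO, Wasl, which encodes the activator N-WASP, was higher, at 34.9, 24.9 and 30.3 FPKM against 11.9, 19.1 and 21.7 FPKM in WT (0.77, adjusted p = 0.0313). On the same sum it was called higher in MUT too (1.19, adjusted p = 0.00384). The activator Wasf1 was at a mean of 5.53 FPKM in WT and 3.81 and 5.34 FPKM in MUT and GcKO.

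Of 8 WASP and WAVE partners tested, 1 was lower in MUT and 2 in GcKO. Nck1, an adaptor that binds N-WASP, was at 91.6, 99.9 and 75.9 FPKM in WT and 39.8 to 50.97 FPKM in MUT and GcKO. It fell by 1.02 in MUT (adjusted p = 6.4e-04) and 0.91 in GcKO (adjusted p = 0.00135), and by quantile normalization too, while on the same sum it was -0.04 and 0.11. Brk1, the small WAVE complex subunit, fell by 0.49 in GcKO (adjusted p = 0.0444). On the same sum it was called higher (0.54, adjusted p = 0.00356), but below the median of all genes (0.74). Of 5 inhibitors and debranching factors and of 6 other formins tested, 0 were called in either group. At an unadjusted p under 0.05 there were 1 and 0 in MUT and 2 and 3 in GcKO. The share of all genes at that threshold was not computed, so nothing about these lists is read from the counts. By the mean over all 12 libraries, the highest inhibitors and debranching factors were Gmfb at 7.59 FPKM and Coro1b at 2.30 FPKM, and the highest of these formins were Fhod3 at 9.89 FPKM and Daam1 at 9.12 FPKM.

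Of 15 actins and actin-binding proteins tested, 5 were lower and 2 higher in MUT and 6 were lower and 2 higher in GcKO. Tmsb10, a thymosin that sequesters actin monomers and the most abundant of the list, was at 7061, 8459 and 8293 FPKM in WT and fell by 1.75 in MUT (adjusted p = 1.0e-04) and 1.29 in GcKO (adjusted p = 3.4e-04). On the same sum it was also lower (-0.75 and -0.25, both called), and after quantile normalization in MUT (-0.45) but not in GcKO (0.01). Reads of Tmsb10, Cfl1 and Ran may be shared with processed copies of these genes, so their levels are uncertain. Cfl2, a cofilin that severs filaments, fell by 1.44 (adjusted p = 5.0e-04) and 1.29 (adjusted p = 0.00101). It was at 421, 425 and 498 FPKM in WT and at 137 to 234 FPKM in MUT and GcKO, without overlap. On the same sum it was -0.45 (called) and -0.26 (not called). Its relative Cfl1 fell by 0.77 (adjusted p = 0.0218) and 0.87 (adjusted p = 0.0122), but was above 0 and not called on the same sum (0.22 and 0.17). Tmsb4x was listed at 0 in all WT libraries, at 1.81, 12.2 and 29.0 FPKM in MUT and at 6.40, 6.09 and 7.64 FPKM in GcKO, and was called higher in both (adjusted p = 0.00335 and 0.0076). Of the 11 granulosa cell markers, Inha and Hsd17b1 were also listed at 0 in WT and above 0 in all MUT libraries. In GcKO, Hsd17b1 was at 0, 0 and 0.957 FPKM. Other markers went otherwise, with Amh, Amhr2 and Foxl2 at 0 throughout. Cyp19a1 had a mean of 17.4 FPKM in WT, 10.6 FPKM in MUT and 12.7 FPKM in GcKO. A link of Tmsb4x to these markers was not tested.

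Of 4 vesicle and motor genes, 1 was lower and 1 higher in each group. Rab11a, a GTPase of the vesicles from which FMN2 and SPIRE nucleate filaments, fell by 0.72 in MUT (adjusted p = 0.00196) and 0.71 in GcKO (adjusted p = 0.00222). On the same sum it was above 0 in both, and called higher in GcKO (0.33, adjusted p = 0.0338). Myo5b, a motor that pulls on these vesicles, was at 4.15, 4.14 and 4.51 FPKM in WT and 7.52 to 12.02 FPKM in MUT and GcKO. It rose by 0.94 (adjusted p = 0.00835) and 1.09 (adjusted p = 0.00359), and under both other scalings.

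Of 9 GTPases, kinase and cortex genes, 4 were lower in MUT and 3 in GcKO. Ran, the GTPase that signals from the chromosomes to the cortex, was at 20.7, 17.5 and 15.96 FPKM in MUT and 24.8, 36.5 and 45.5 FPKM in GcKO, against 46.4, 40.2 and 52.5 FPKM in WT. It fell by 1.31 in MUT (adjusted p = 0.00105) and was not called in GcKO (-0.41, adjusted p = 0.213). On the same sum it was -0.35 and not called in MUT, and was higher in GcKO (0.61, adjusted p = 0.0149). The myosin light chain gene Myl12a fell by 1.29 (adjusted p = 3.7e-04) and 1.22 (adjusted p = 5.4e-04), and was below 0 on the same sum as well (-0.29, called, and -0.19, not called). Myl12b fell by 1.20 in MUT (adjusted p = 0.034), a call lost on the same sum (-0.24, adjusted p = 0.57) and after quantile normalization (-1.001, adjusted p = 0.0868). Rdx, which encodes the membrane linker radixin, fell by 0.54 (adjusted p = 0.011) and 0.41 (adjusted p = 0.045) and was higher on the same sum. Mos, the kinase that starts the MAPK cascade of meiosis, was at a mean of 1172 FPKM in WT and was not called (-0.10 and -0.35), but was higher on the same sum (0.90 and 0.69, both called).

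**Figure D5:**
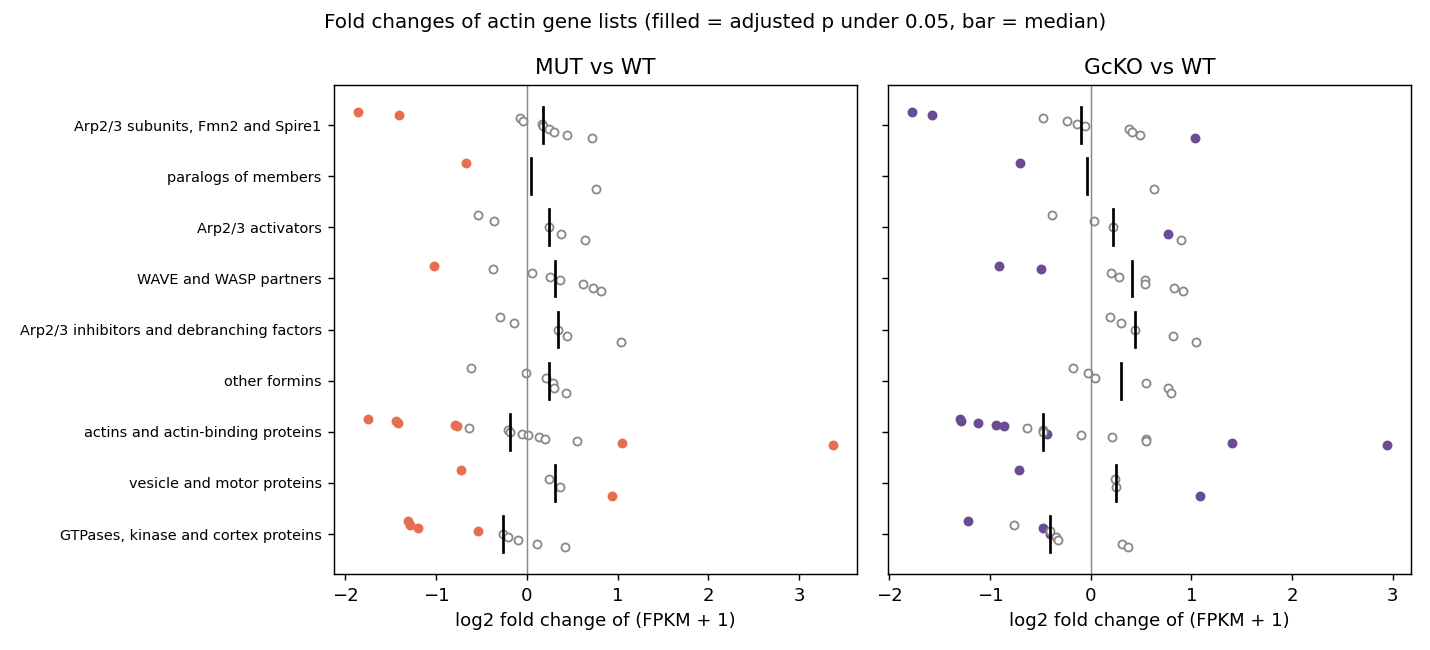
Log2 fold change of (FPKM + 1) for MUT and GcKO against WT of each gene tested in the 9 actin lists, filled points being called at an adjusted p under 0.05 and bars marking list medians. Changes in the activator, inhibitor and formin lists are few, and those in the list of actins and actin-binding proteins reach from -1.75 to 3.37 in MUT.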

How the data were processed

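RNA-Seq values were taken from 12 libraries in 4 groups of 3, mapped by their labels. The authors aligned reads to mm10 with TopHat2 2.0.13 and deposited FPKM from Cufflinks 2.2.1, 1 column per library; the gene annotation is not given in the sources used here. The authors also deposited fold changes with p-values of 6 comparisons, which were not used. The labels and the design text name different library kits, and use of the read strand is not given in the sources used here.

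Limma 3.58.1 in R 4.3.3 was fitted with a variance trend to log2(FPKM + 1) of 11233 of 24255 genes (at least 1 FPKM in at least 1 library), all 12 libraries in 1 fit with 8 residual degrees of freedom. Changes are on that scale, which understates those of low genes. P-values were adjusted by Benjamini-Hochberg over all genes within each of 6 contrasts, and a gene was called at an adjusted p under 0.05. Ratios used the exact permutation test, two-sided (scipy 1.17.1, Python 3.11.15). The code was tested on simulated data.

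FPKM holds no counts. Low values were whole multiples of the value of 1 fragment, within 0.15, for 80.5 to 83.3% of low values per library. Fragment numbers estimated from this step use annotated lengths and cover counting error only. Tests on reads were not run, since per-gene lengths used by the authors are not known.

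The genes and lists were chosen with earlier results of these data known. Other actin genes named in the text are, per list, up to 3 with the largest called change in MUT or GcKO against WT and the 2 with the highest mean FPKM. Of 80 listed genes, 4 were found under an older symbol. Gene positions are from GENCODE M21 (GRCm38). The alternatives tried were a pseudocount of 0.1, all genes without a filter, a mean of at least 5 FPKM, 3 other scalings, no variance trend, only the 2 groups compared, a fold change over 2, the replicate number as a block and each library left out. Description by abundance class was chosen after seeing the data. Deviations from the group mean were correlated between libraries of MUT and GcKO and of WT and AmcKO. Same-numbered libraries gave -0.041 to 0.041 and differently numbered ones -0.057 to 0.071. With 3 libraries a group, these values cannot tell whether the numbers pair the samples.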

Additional observations from a re-analysis of the deposited data

How the results depend on the processing

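Counts of called genes moved most with scaling. With each library on the same FPKM sum, 10 of the 10 genes were called in MUT against WT (2 as deposited), 7 in GcKO against WT (3 as deposited), 3 in GcKO against AmcKO (1 as deposited) and 3 in MUT against AmcKO (2 as deposited). In GcKO against AmcKO, 0 were called with only the 2 groups in the fit, where Actr2 had an adjusted p of 0.06 and no gene of the table was called. In MUT against AmcKO, 1 was called with a pseudocount of 0.1, without the filter, with quantile normalization, without the variance trend and with only the 2 groups compared, and 1 to 2 with a library left out. Median-of-ratios scaling and a fold change over 2 left each count as it was. With a mean of at least 5 FPKM, 3 were called in MUT against WT (Arpc5 added) and 2 in GcKO against WT (Arpc1a, below that mean, not tested).

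Over all 10 genes, the same sum turned the sign of 2 in MUT and 4 in GcKO against WT, 2 in AmcKO against WT, 7 in GcKO against AmcKO and 4 in MUT against AmcKO. Quantile normalization turned 3, 2, 1, 3 and 0 in these contrasts, and median-of-ratios scaling turned only Fmn2 in GcKO against AmcKO. With a library left out, 3, 1, 4, 3 and 3 had values on both sides of 0, and 3 in GcKO against MUT. Among these, the same sum turned log2 fold changes positive for Arpc2 (0.88) and Spire1 (0.94) in MUT and for Arpc1b (0.42), Arpc2 (0.95), Arpc4 (0.68) and Spire1 (0.88) in GcKO against WT, for Arpc3 in GcKO against AmcKO (0.0065) and for Arpc1a in MUT against AmcKO (0.43). Quantile normalization turned those of Arpc1a (-0.0708), Arpc2 (0.0277) and Spire1 (0.23) in MUT and of Arpc2 (0.10) and Spire1 (0.19) in GcKO. With a library left out, values crossed 0 among others in MUT against WT for Arpc1b (-0.0136 to 0.51), Arpc2 (-0.34 to 0.16) and Spire1 (-0.19 to 0.044), in GcKO against WT for Arpc2 (-0.31 to 0.18), in AmcKO against WT for Actr2 (-0.0035 to 0.17) and in MUT against AmcKO for Arpc1a (-0.25 to 0.0582). The causes were not tested.

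The ratio of Arpc1b to Arpc1a in MUT against WT ranged from -0.42 to 0.48 without 1 library, turning without MUT replicate 2 or WT replicate 5. 

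The shared numbers of MUT and GcKO and of WT and AmcKO were not treated as pairs in the main fit. Whether they pair the samples cannot be told from these values. With the number as a replicate block, 0 of the 10 genes were called in either contrast, as without it.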
